A study of Mus musculus with 12 samples.

Results

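The 10 factors described here are Fos, Fosb, Fosl1, Fosl2, Jun, Junb, Jund, Atf3, Egr1 and Klf6, taken by symbol from a table of 23183 genes, and all 10 symbols were listed in every library. RNA was sequenced from the kidney cortex on day 7 after unilateral ureteral obstruction (UUO), a model of kidney fibrosis made by tying off 1 ureter. The contralateral (CL) kidney of the operated mice served as the control, so the CL kidneys are not kidneys of sham-operated mice. The mice were males aged 6 to 7 weeks of the C57BL/6N substrain (C57BL/6 in the labels), either Acot12+/+ (labelled WT, and called so here) or Acot12-/-, which lack acyl-CoA thioesterase 12 in every tissue through an RGEN-induced germline mutation. The 4 groups, WT CL, WT UUO, Acot12-/- CL and Acot12-/- UUO, hold 3 libraries each, 12 in all. Values are FPKM, fragments per gene scaled for transcript length and library size, so that levels of different genes can be compared.

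Immediate early genes are switched on within minutes of a stimulus, without new protein synthesis, by kinase cascades that act on transcription factors already bound near their start sites. Many of them encode transcription factors. The Fos proteins (Fos, Fosb, Fosl1, Fosl2) and the Jun proteins (Jun, Junb, Jund) are leucine zipper proteins that join as dimers, known together as AP-1; Jun proteins can pair among themselves, whereas Fos proteins need a Jun partner. Atf3 is a leucine zipper stress factor that also pairs with Jun proteins, and Egr1 and Klf6 bind DNA through zinc fingers. In the kidney these genes are known as early responders to ischaemia, stretch and toxic injury.

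Promoters of 8 of the 10 genes, all but Egr1 and Fosl1, were found among the RefSeq sequences (GRCm38.p6), each covering 250 bases before the start of transcription. The stretches below are the 140 bases that end just before the RefSeq start, written 5′ to 3′ in the direction of the gene. They are shown because the genes rose together in the obstructed kidneys, and capitals mark the motifs that were found.
Fos (chr12:85473750-85473889, plus strand): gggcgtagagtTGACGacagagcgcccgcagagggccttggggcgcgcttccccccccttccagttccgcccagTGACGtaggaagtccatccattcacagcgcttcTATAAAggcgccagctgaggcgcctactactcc
Fosb (chr7:19310046-19310185, minus strand): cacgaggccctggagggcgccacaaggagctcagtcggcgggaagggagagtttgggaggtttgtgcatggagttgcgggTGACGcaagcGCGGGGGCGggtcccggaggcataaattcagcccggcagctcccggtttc
Junb (chr8:84978749-84978888, minus strand): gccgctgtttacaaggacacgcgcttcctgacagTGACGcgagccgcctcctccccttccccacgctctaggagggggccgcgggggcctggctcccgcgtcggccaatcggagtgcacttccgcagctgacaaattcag
Jun (chr4:95052223-95052362, minus strand): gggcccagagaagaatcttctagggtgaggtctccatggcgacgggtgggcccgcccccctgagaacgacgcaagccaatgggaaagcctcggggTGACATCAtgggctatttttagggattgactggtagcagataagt
Klf6 (chr13:5861349-5861488, plus strand): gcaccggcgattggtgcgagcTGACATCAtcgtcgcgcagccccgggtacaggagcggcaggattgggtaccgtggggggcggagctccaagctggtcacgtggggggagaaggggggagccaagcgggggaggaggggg

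Each motif was searched on both strands over the 250 bases before the start in 32851 promoters. Bases further upstream were not searched, so a motif not found here may still lie there. TGACG, the first 5 bases of the cAMP response element, occurred in 4 of the 8 promoters (Fos, Fosb, Junb and Atf3), against 17.8% of all promoters. In Fos it lies at bases -129 and -66 from the start, in Fosb at -60 and in Junb at -106. TGACATCA, the variant AP-1 element known from the Jun promoter, was added after the sequences had been read, and occurred in Jun at -45 and in Klf6 at -119 (2.93% of all promoters). GCGNGGGCG, bound by Egr proteins, occurred in Fosb and Fosl2 (4.7% of all), and TATAAA in Fos alone (12.4% of all). The full element TGACGTCA (1.55% of all), the AP-1 site TGANTCA, where N is any base (6.75%), and the CArG box bound by serum response factor (1.47%) were found in none of the 8 windows. TGACG is part of TGACGTCA, so those 2 counts overlap. A match describes letters in this window, and no binding was measured. The RefSeq starts of Atf3, Fosl2, Jund and Junb differ from the gene starts of the annotation, and those of Fosb and Klf6 differ by a few bases. The Junb window ends at base 84978749 of chromosome 8 on the minus strand, where the annotated gene starts at 84978718. Positions given here are counted from the RefSeq start. The Jund window ends at base 70697738 of chromosome 8, upstream of the annotated gene start at 70698949. It may therefore not hold the Jund promoter, and the counts over 8 windows include it.

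The tissue and the genotype were checked first. Markers of the proximal tubule, the main cell type of the cortex, summed to 2871 to 5621 FPKM in the CL libraries and to 533 to 1534 in the UUO libraries. Acot12 was at 52.7 to 78.1 FPKM in WT CL and at 6.80 to 9.15 in Acot12-/- CL, and at 9.98 to 21.2 in WT UUO and 1.80 to 3.86 in Acot12-/- UUO, so Acot12 RNA was lower but not absent in the Acot12-/- libraries. 1 library, Acot12-/- CL replicate 2, stood apart from its group, with correlations of log2 values across genes of 0.942 and 0.950 with the other 2, against 0.974 to 0.992 within all other pairs of replicates. Where it moved a value described here by a large amount, the value without it is given as well. The total FPKM per library ran from 491078 to 977981 and was lower in UUO than in CL libraries.

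In WT kidneys obstruction raised 7 of the 8 factors that could be tested, by 1.43 (Fos) to 2.83 (Egr1) on the log2(FPKM + 1) scale (called at an adjusted p under 0.05 in limma). Of all 13243 genes tested, 23.6% were called higher and 23.9% lower in this comparison, so a call alone is frequent here. In Acot12-/- kidneys all 8 tested factors were called higher, against 26.6% of all tested genes called higher and 27.2% called lower. The median difference of the 8 factors was 2.18 in WT and 2.15 in Acot12-/- kidneys, and that of all tested genes was 0.01 and -0.01. A gene was tested where at least 3 libraries had at least 1 FPKM. Fosb and Fosl1 reached 1 FPKM in no library and were left out, and Fos reached it in 8 libraries of which only 2 were CL, so it passed through its level in UUO kidneys. In a fit without this filter Fosb and Fosl1 were called higher as well, in both genotypes, and 9 of the 10 factors in all were called in each. That fit called 3702 of all 19125 genes higher in WT and 4421 in Acot12-/- kidneys. Every UUO library lay above every CL library of its genotype for all 10 factors, with the exception of Jund in Acot12-/- kidneys. Between kidneys of the same genotype and replicate number, UUO was above CL in 6 of 6 pairs for each of the 10 factors. The share of all tested genes that lay apart in this way, or that rose in all 6 pairs, was not computed. Neither count can therefore be set against a background. In bulk RNA, more cells of a type and more RNA per cell cannot be told apart.

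**Figure D1:**
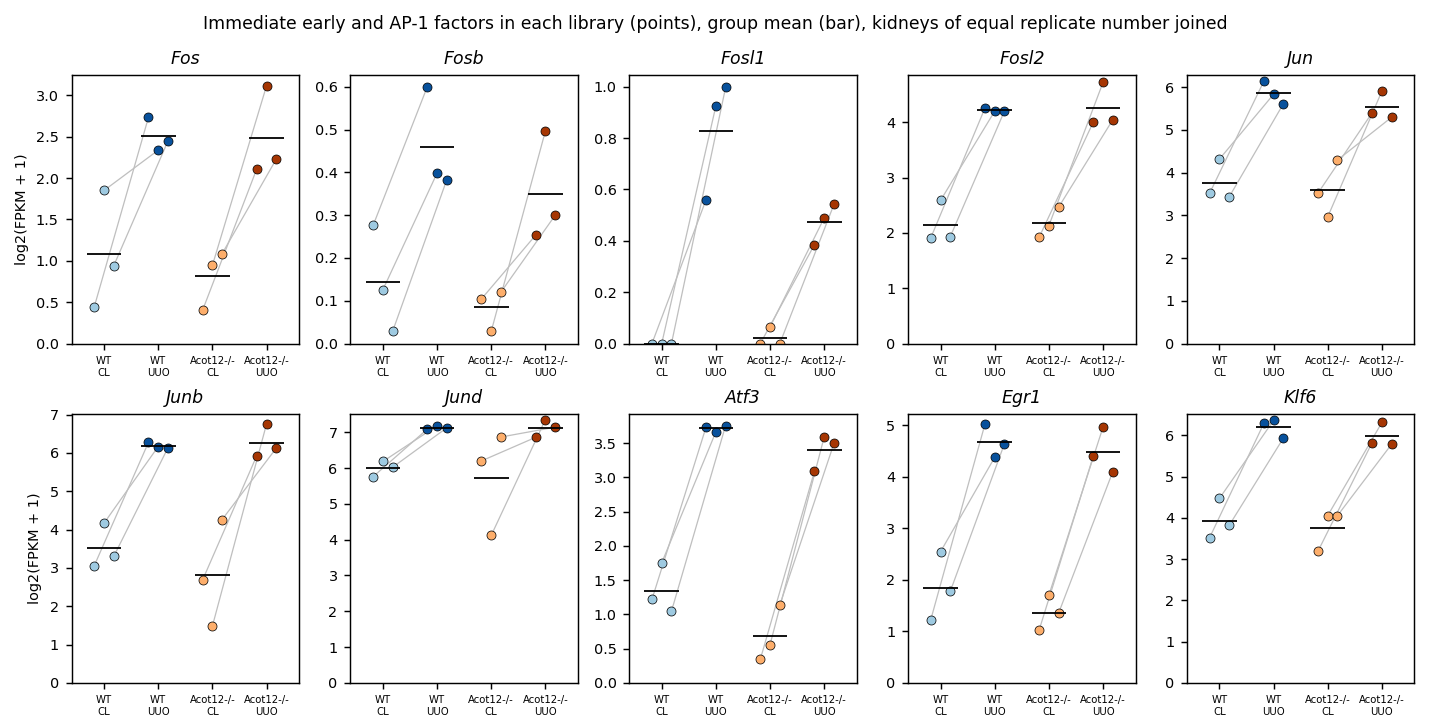
Level of each factor in log2(FPKM + 1), a panel per gene with its own vertical axis from 0, for the 4 groups of 3 libraries; points are libraries, bars are group means and grey lines join kidneys of the same replicate number. The UUO points lie above the CL points of their genotype in every panel except Jund, where Acot12-/- CL replicate 3 (116 FPKM) slightly exceeds Acot12-/- UUO replicate 1 (115 FPKM).

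The Fos family came first. Fos (chr12:85473890-85477273, plus strand, in the GRCm38 annotation), the prototype immediate early gene, measured 0.361, 2.605 and 0.920 FPKM in WT CL and 5.65, 4.05 and 4.46 in WT UUO kidneys. Fos in the Acot12-/- CL libraries was at 0.323, 0.924 and 1.12 FPKM, and in the Acot12-/- UUO libraries at 3.32, 7.67 and 3.69. The CL libraries varied several-fold among themselves in both genotypes, and the highest of them still lay below the lowest UUO library. Fos rose by 1.43 (SE 0.34, adjusted p = 0.00504) in WT and by 1.67 (SE 0.34, adjusted p = 0.00144) in Acot12-/- kidneys, in a scale that understates changes near 0.

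Fosl2 (chr5:32135801-32157842, plus strand), which encodes the Fos-related protein Fra-2, was the most abundant Fos family transcript. It measured 2.76, 5.01 and 2.815 FPKM in WT CL and 18.1, 17.4 and 17.4 in WT UUO kidneys. The values of Acot12-/- mice were 2.79, 3.38 and 4.52 in CL and 15.01, 25.4 and 15.5 in UUO kidneys. The 3 WT UUO libraries were almost level with each other, while in the Acot12-/- UUO group replicate 2 stood above the others. The rise was 2.08 in both genotypes (SE 0.23 in each, adjusted p = 3.87e-05 in WT and 2.01e-05 in Acot12-/-), and the ratio of group means was 4.996 in WT and 5.23 in Acot12-/- kidneys. Fosl2 made up 65.0% to 87.5% of the summed Fos family FPKM in CL and 73.2% to 79.7% in UUO libraries, so its share of the family overlapped between CL and UUO.

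Fosl1 (chr19:5447547-5455946, plus strand), which encodes Fra-1, was listed at 0 in 5 of the 6 CL libraries and at 0.046 FPKM in the other, a value worth about 1 fragment. It measured 0.475, 0.899 and 0.997 FPKM in WT UUO and 0.306, 0.404 and 0.456 in Acot12-/- UUO kidneys, worth about 11 to 36.3 fragments per library. Fosl1 was thus detected in every UUO library. In the fit without a filter the difference between UUO and CL was 0.83 (SE 0.09, adjusted p = 0.000121) in WT and 0.45 (SE 0.09, adjusted p = 0.00277) in Acot12-/- kidneys. Fosb (chr7:19302696-19310051, minus strand) was also low. Its values ran from 0.02 to 0.211 FPKM in the 6 CL libraries and from 0.192 to 0.516 in the 6 UUO libraries, without overlap within a genotype. The unfiltered difference of Fosb was 0.32 (SE 0.08, adjusted p = 0.0126) in WT and 0.27 (SE 0.08, adjusted p = 0.0246) in Acot12-/- kidneys.

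Among the Jun family, Jun (chr4:95049034-95052222, minus strand), the founding partner of Fos and a target of the JNK kinases, measured 10.5, 18.9 and 9.78 FPKM in WT CL and 69.5, 56.0 and 47.8 in WT UUO kidneys. Jun in Acot12-/- mice was at 10.5, 6.81 and 18.6 in CL and 41.3, 59.0 and 38.4 in UUO kidneys. The lowest UUO library was 2.53 times the highest CL library in WT and 2.06 times in Acot12-/- mice. Jun rose by 2.11 (SE 0.33, adjusted p = 0.000299) in WT and by 1.94 (SE 0.33, adjusted p = 0.000364) in Acot12-/- kidneys, where the rise was 1.63 without CL replicate 2.

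Junb (chr8:84974484-84978718, minus strand), which can oppose Jun on growth genes, showed a larger rise. It measured 7.33, 17.0 and 8.85 FPKM in WT CL and 76.4, 70.8 and 69.2 in WT UUO kidneys. Acot12-/- kidneys had Junb at 5.44, 1.79 and 18.2 in CL and 59.9, 107 and 68.8 in UUO kidneys. The CL libraries of Acot12-/- mice were far apart, with the lowest value in replicate 2, the library that stood apart. Junb rose by 2.68 (SE 0.54, adjusted p = 0.00158) in WT and by 3.46 (SE 0.54, adjusted p = 0.000198) in Acot12-/- kidneys. Without Acot12-/- CL replicate 2 the Acot12-/- difference was 2.80, the lowest value when any single library was left out, and Junb was still called.

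Jund (chr8:70698949-70700616, plus strand), the Jun protein that resting cells express, was the most abundant of the 10 factors in every group. It measured 53.1, 71.6 and 63.9 FPKM in WT CL and 135, 144 and 138 in WT UUO kidneys, a ratio of means of 2.21. Acot12-/- kidneys had 72.4, 16.4 and 116 in CL and 115, 162 and 140 in UUO kidneys. The WT groups did not overlap, whereas the Acot12-/- groups did. Jund was 1.14 higher (SE 0.50, adjusted p = 0.0808) in WT UUO kidneys, which missed the threshold, and rose by 1.39 (SE 0.50, adjusted p = 0.0348) in Acot12-/- kidneys. The SE is an estimate shared by the 4 groups. With Acot12-/- CL replicate 2 left out of the fit the WT difference was the same 1.14 with an SE of 0.19 and an adjusted p of 0.000406, and the Acot12-/- difference was 0.58 (adjusted p = 0.0301). With only the 2 WT groups in the fit the adjusted p was 0.000174, and with only the 2 Acot12-/- groups it was 0.101.

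The make-up of the Jun family changed between CL and UUO libraries, whatever the scaling of the libraries, since a share within a library has no scale. Jund made up 66.6% to 77.4% of the summed Jun, Junb and Jund FPKM in WT CL and 48.0% to 54.2% in WT UUO libraries. In Acot12-/- mice its share was 65.5% to 82.0% in CL and 49.4% to 56.7% in UUO libraries. Junb went from 6.15% to 15.8% of the family over the 6 CL libraries to 26.1% to 32.6% over the 6 UUO libraries. The CL and UUO shares of Jund and of Junb did not overlap in either genotype, and no test was run on them. The share of Jun was 11.9% to 27.3% in CL and 15.5% to 24.7% in UUO libraries and overlapped; its highest value was that of Acot12-/- CL replicate 2. The summed Jun family was 5.71 to 27.8 times the summed Fos family in CL and 9.71 to 12.4 times in UUO libraries. The lowest CL value was that of Acot12-/- CL replicate 2, and without it the CL libraries ran from 13.95 to 27.8 and did not overlap with the UUO libraries.

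**Figure D2:**
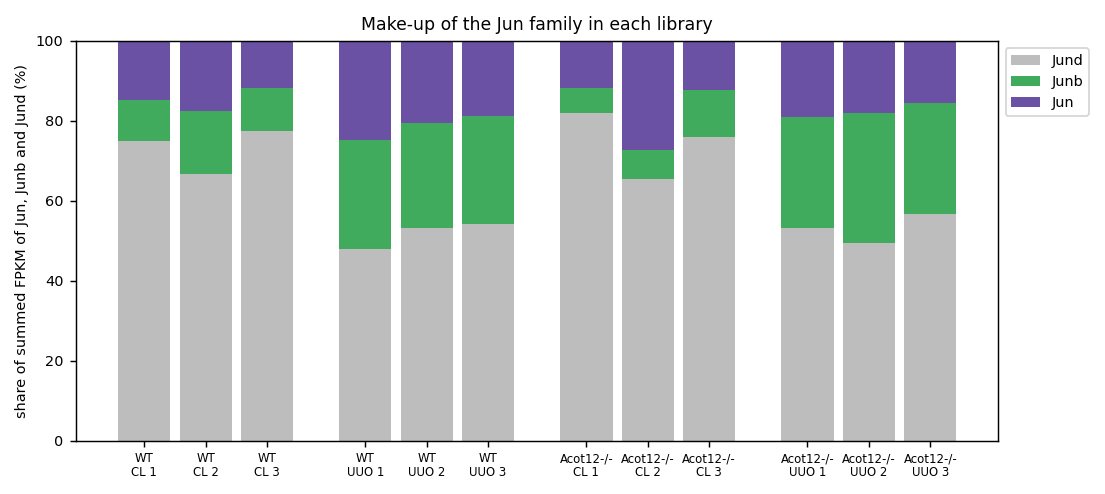
Share (in percent, on an axis from 0) of Jund, Junb and Jun in the summed FPKM of these 3 genes, a stacked bar per library. The grey Jund part covers at least 65.5% of every CL bar and at most 56.7% of every UUO bar, and the green Junb part is wider in every UUO bar.

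Atf3 (chr1:191170296-191218039, minus strand), a stress-induced repressor and activator, measured 1.33, 2.37 and 1.06 FPKM in WT CL and 12.3, 11.7 and 12.5 in WT UUO kidneys. Atf3 in Acot12-/- mice was at 0.268, 0.472 and 1.20 in CL and 7.505, 11.04 and 10.3 in UUO kidneys. The WT UUO libraries differed little, and all of them lay above every Acot12-/- UUO library. Atf3 rose by 2.38 (SE 0.23, adjusted p = 1.65e-05) in WT and by 2.71 (SE 0.23, adjusted p = 3.1e-06) in Acot12-/- kidneys. The ratio of its group means was 7.67 in WT and 14.9 in Acot12-/- kidneys, the latter over CL values near or below 1 FPKM.

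Egr1, on chromosome 18, encodes a zinc finger factor induced by the ERK kinases. It measured 1.34, 4.83 and 2.42 FPKM in WT CL and 31.4, 19.7 and 23.9 in WT UUO kidneys. The Acot12-/- values were 1.03, 2.25 and 1.56 in CL and 20.1, 30.2 and 16.1 in UUO kidneys. The lowest UUO library was 4.09 times the highest CL library in WT and 7.15 times in Acot12-/- mice. Egr1 rose by 2.83 (SE 0.32, adjusted p = 4.32e-05) in WT and by 3.13 (SE 0.32, adjusted p = 1.27e-05) in Acot12-/- kidneys. In WT kidneys only 0.446% of the genes tested had an equal or larger difference.

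Klf6 (chr13:5861482-5870394, plus strand), a zinc finger factor of the Krüppel-like family, measured 10.5, 21.2 and 13.1 FPKM in WT CL and 77.3, 81.5 and 60.1 in WT UUO kidneys. In Acot12-/- mice it measured 8.14, 15.6 and 15.6 in CL and 55.9, 78.6 and 54.3 in UUO kidneys. The groups were well apart in both genotypes. Klf6 rose by 2.26 (SE 0.29, adjusted p = 7.88e-05) in WT and by 2.21 (SE 0.29, adjusted p = 5.37e-05) in Acot12-/- kidneys. In order of mean FPKM, Jund led in both UUO groups, followed by Klf6 and Junb (Junb first in Acot12-/- mice) and by Jun, and the libraries of these neighbours overlapped. Egr1, Fosl2, Atf3 and Fos came next in that order, without overlap between neighbours in WT UUO, whereas Egr1 overlapped with Fosl2 and Atf3 with Fos in Acot12-/- UUO libraries. Fosl1 and Fosb came last and overlapped. In the CL groups Klf6, Jun and Junb followed Jund and likewise overlapped between neighbours, and Fosl1 came last.

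The size of these differences depends on how the libraries are scaled. The deposited values were already level by the median ratio between libraries (size factors of 0.977 to 1.023). When every library was set to the same total FPKM instead, the median difference of all tested genes moved to 0.62 in WT and 0.45 in Acot12-/- kidneys. The calls over all genes then went from 3129 higher and 3161 lower to 7424 higher and 1048 lower in WT, and from 3518 and 3596 to 6077 and 1551 in Acot12-/- kidneys. Relative to those medians the 8 tested factors were still 1.25 (Jund) to 2.85 (Egr1) higher in WT UUO kidneys and 1.48 (Jund) to 3.51 (Junb) higher in Acot12-/- UUO kidneys, and all 8 were called in both genotypes.

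**Figure D3:**
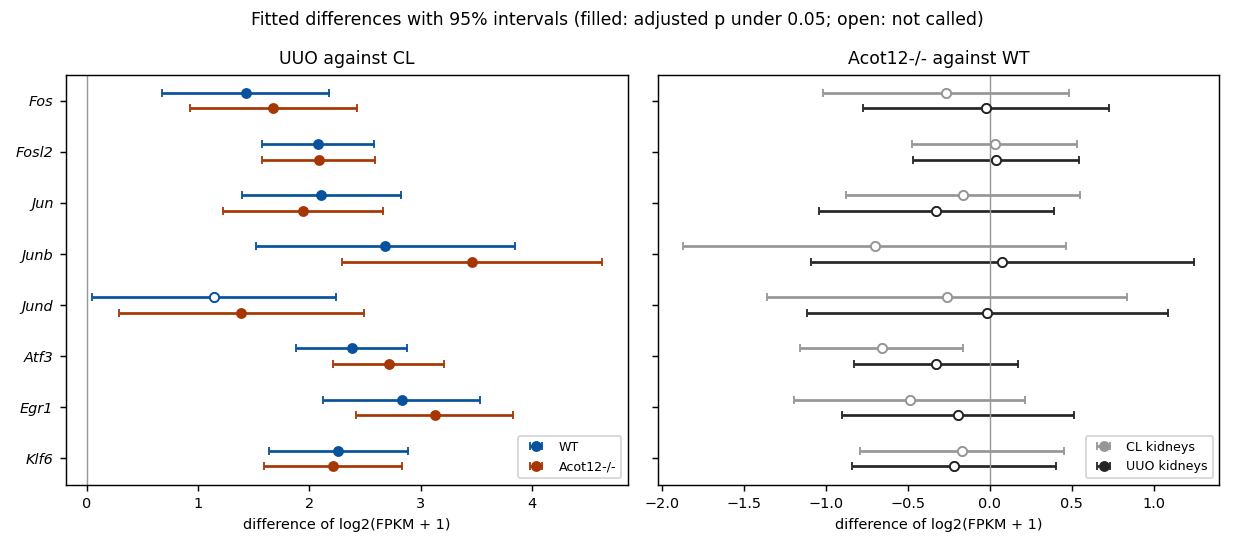
Fitted differences of log2(FPKM + 1) with 95% intervals for the 8 tested factors, UUO against CL in each genotype (left) and Acot12-/- against WT in CL and UUO kidneys (right); filled points have an adjusted p under 0.05 in limma and open points do not. On the left all points but Jund in WT are filled and the intervals of both genotypes overlap for every gene, and on the right no point is filled.

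Whether loss of Acot12 altered these factors was asked in the obstructed and in the contralateral kidneys. In UUO kidneys 0 of the 8 tested factors were called between genotypes, where 0.0151% of all tested genes (2 genes) were called. The differences, Acot12-/- minus WT, ran from -0.33 (Atf3) to 0.08 (Junb), none had an unadjusted p under 0.05, and over all genes 312 had one. For Fosl2 the difference was 0.04 with a 95% interval of -0.47 to 0.54, and for Jund -0.01 with an interval of -1.11 to 1.09. The intervals of the 8 factors together spanned -1.11 to 1.25, and the widest were those of Junb and Jund. Atf3 and Fosl1 did not overlap between genotypes in UUO kidneys: the 3 Acot12-/- values lay below the 3 WT values, at 7.505 to 11.04 against 11.7 to 12.5 FPKM for Atf3 and at 0.306 to 0.456 against 0.475 to 0.997 FPKM for Fosl1. The other factors overlapped, and these 2 are named after their values were seen. How many of all genes lie apart in this way was not computed. For Atf3 the unadjusted p was 0.178 in limma. For Fosl1 the difference of -0.36 (SE 0.09) had an unadjusted p of 0.00311 and an adjusted p of 0.561 in the limma fit without a filter.

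In CL kidneys 0 of the 8 tested factors were called between genotypes, against 4.48% of all tested genes. Atf3 was lower by a difference of -0.66 in Acot12-/- CL kidneys (95% interval -1.16 to -0.16, unadjusted p = 0.0137 and adjusted p = 0.143 in limma), the only one of the 8 with an unadjusted p under 0.05. Without Acot12-/- CL replicate 3 this difference was -0.89 with an adjusted p of 0.0378. Junb differed by -0.70 (SE 0.54), and by -0.03 without Acot12-/- CL replicate 2, and Jund by -0.26 with that library and 0.54 (adjusted p = 0.0845) without it. In the same comparison 3 of 8 macrophage markers, 4 of 6 T cell markers, 3 of 8 fibroblast markers and 5 of 6 endothelial markers were called lower in Acot12-/- CL kidneys, and their part in the values of the factors was not tested.

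The interaction, which asks whether obstruction changed a gene by a different amount in the 2 genotypes, called 0 of the 8 tested factors and 0.106% of all tested genes. The estimates ran from -0.16 (Jun) to 0.78 (Junb, SE 0.76, adjusted p = 0.849), and none had an unadjusted p under 0.05, against 1389 of all genes. Without Acot12-/- CL replicate 2 the interaction was 0.11 for Junb, -0.48 for Jun and -0.56 for Jund (0.25 with it). Over all genes the interaction calls went from 14 to 203 when kidneys of the same number were kept as a pair in the fit (replicate block), and to 916 without Acot12-/- CL replicate 2, and none of the 8 factors was called in either fit. The same library took the calls between genotypes in CL kidneys from 593 to 2923 when it was left out, again with 0 of the 8 factors.

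**Figure D4:**
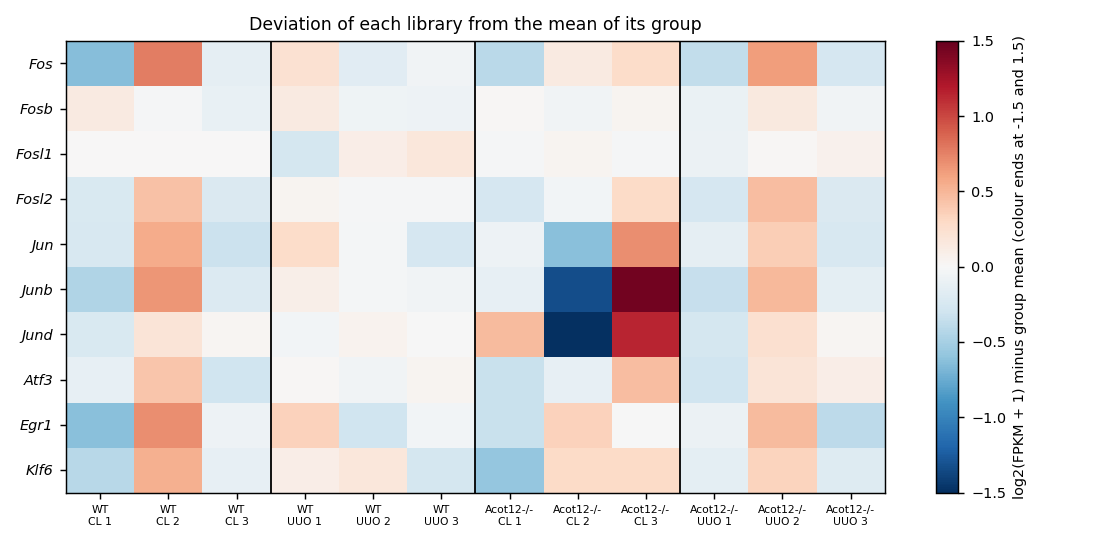
Deviation of each library from the mean of its group in log2(FPKM + 1), factors in rows and libraries in columns, red above and blue below the mean; the colour ends at -1.5 and 1.5. Columns of WT CL replicate 2 and Acot12-/- UUO replicate 2 are red in nearly all rows, and Junb and Jund are far apart between Acot12-/- CL replicates 2 and 3.

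The factors tended to be high in the same library of a group. WT CL replicate 2 was the highest of its 3 libraries in 8 of the 10 factors, whereas it was the highest in 33.6% of all tested genes. Acot12-/- UUO replicate 2 was the highest of its group in 9 of 10 factors (35.2% of all tested genes), and Acot12-/- CL replicate 3 in 7 of 10 (36.8%). With equal totals these counts were 7, 10 and 7, against 10.5%, 58.0% and 30.4% of all tested genes. Markers of injured tubule cells (Havcr1, Lcn2, Sox9, Vcam1, Krt20 and Cdh6) summed to 25.8, 52.9 and 10.5 FPKM in WT CL, to 6.48, 15.7 and 42.8 in Acot12-/- CL and to 1100, 1358 and 1211 in Acot12-/- UUO libraries, each sum highest in the library named. Singly, Havcr1 and Sox9 were highest in each of these 3 libraries, whereas Lcn2, Vcam1, Krt20 and Cdh6 were not highest in all of them. Vcam1 was highest in Acot12-/- CL replicate 2 (5.28 FPKM) and in Acot12-/- UUO replicate 1 (164 FPKM). The neutrophil markers were highest in the same 3 libraries, with sums of 15.54, 65.2 and 15.55 FPKM in WT CL, of 2.19, 13.9 and 23.7 in Acot12-/- CL and of 41.6, 158 and 53.7 in Acot12-/- UUO libraries. Of the 4 neutrophil genes listed, only S100a8 and S100a9 passed the filter on low values. None of the other marker lists was highest in all 3 of these libraries. The macrophage sum was highest in Acot12-/- CL replicate 3, but was 155, 139 and 150 FPKM in WT CL and 458, 694 and 762 in Acot12-/- UUO libraries. The T cell sum was highest in WT CL replicate 2 and Acot12-/- CL replicate 3, but lowest of its group in Acot12-/- UUO replicate 2 (15.9 FPKM). The proximal tubule sum of Acot12-/- UUO replicate 2 (533 FPKM) was the lowest of all 12 libraries. The remaining group, WT UUO, differed. There replicate 1 was the highest in 6 of 10 factors (26.0% of all tested genes), and in 8 of 10 (51.05%) with equal totals. Its injured tubule sum was the lowest of the group, with 1284, 1306 and 1321 FPKM in replicates 1 to 3. The neutrophil sum of WT UUO was highest in replicate 2, with 35.0, 72.8 and 22.35 FPKM. The part of these cells in the values of the factors was not tested.

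The genes whose deviations from the group means were most like those of Fos over the 12 libraries were Hnrnpa0 (Pearson r = 0.965), Fbxw17 (0.910), Akr1b8 (0.905), Pf4 (0.900) and Zfp36 (0.891), the last of which encodes a protein that destabilizes mRNAs, Fos mRNA among them. Among the factors, Fosl2 (r = 0.935) and Egr1 (0.923) stood at ranks 2 and 3 of 13243 genes in likeness to Fos and Klf6 (0.875) at rank 14. Atf3 (0.744), Jun (0.650) and Junb (0.51) followed at ranks 131, 358 and 929, and Jund (0.144) stood far down at rank 4332. These values are a description; the libraries share the same scaling, CL and UUO libraries of the same number may come from the same mouse, and the 12 deviations carry only 8 degrees of freedom.

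The genes around these factors were taken as 5 lists. Of 21 other immediate early genes, 16 could be tested; 12 were called higher in WT UUO kidneys and 16 in Acot12-/- UUO kidneys, and 0 were called lower in either. Over all tested genes, 23.6% were called higher and 23.9% lower in WT, and 26.6% and 27.2% in Acot12-/- kidneys. The median difference of the 16 genes was 1.30 in WT and 1.75 in Acot12-/- kidneys. Myc, a growth factor-induced transcription factor, rose by 2.87 (adjusted p = 1.95e-06) in WT and by 1.92 (adjusted p = 9.84e-06) in Acot12-/- kidneys. Cyr61, a matrix-associated signalling protein, rose by 2.63 (adjusted p = 0.000314) and 2.60 (adjusted p = 0.000241). The 4 that were not called in WT kidneys, Ctgf (0.74), Nr4a1 (0.57), Ier3 (0.36) and Klf2 (0.00), were called in Acot12-/- kidneys, where Klf2 rose by 1.51 and Ctgf by 2.30; they are named after their values were seen, and the interaction called none of the 16 (Klf2 1.51, adjusted p = 0.0661, and Ctgf 1.565, adjusted p = 0.145). In CL kidneys Ctgf and Klf2 were the 2 genes of the list called lower in Acot12-/- than in WT mice.

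Among 22 other leucine zipper genes that can pair with AP-1 proteins or bind like sites, 8 rose and 1 fell in WT UUO kidneys, and 11 rose and 1 fell in Acot12-/- UUO kidneys, beside 23.6% of all tested genes called higher and 23.9% lower in WT and 26.6% and 27.2% in Acot12-/- kidneys. Maff, a small Maf protein, rose by 2.56 (adjusted p = 1.805e-05) in WT and by 3.12 (adjusted p = 2.29e-06) in Acot12-/- kidneys. Cebpd, a C/EBP factor of the acute phase, rose by 1.75 (adjusted p = 0.007) and 2.38 (adjusted p = 0.000783). Maf was the gene that fell, by 0.76 (adjusted p = 0.0400) in WT and by 0.96 (adjusted p = 0.0113) in Acot12-/- kidneys. The median of the list was 0.29 in WT and 0.46 in Acot12-/- kidneys.

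Of 26 kinases and cofactors that act upstream of these factors, 24 were tested. In WT UUO kidneys 8 rose and 2 fell, and in Acot12-/- UUO kidneys 8 rose and 7 fell. Of all tested genes 23.6% were called higher and 23.9% lower in WT, and 26.6% and 27.2% in Acot12-/- kidneys, so these counts of kinases do not stand far from the background. Map3k1, a kinase above JNK, rose by 1.45 (adjusted p = 0.000917) in WT and 1.40 (adjusted p = 0.000868) in Acot12-/- kidneys, and Mapk7, which encodes ERK5, by 1.22 (adjusted p = 0.000405) and 1.25 (adjusted p = 0.000237). Mapk14, which encodes the p38 alpha kinase, fell by 0.70 (adjusted p = 0.000871) and 0.97 (adjusted p = 6.11e-05). These are RNA levels, and kinase activity was not measured. The median of the list was 0.21 in WT and 0.14 in Acot12-/- kidneys.

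Of 22 feedback inhibitors, among them the dual-specificity phosphatases that switch off the kinases, 10 rose and 1 fell in WT UUO kidneys, and 12 rose and 0 fell in Acot12-/- UUO kidneys. Over all tested genes the shares called higher and lower were 23.6% and 23.9% in WT, and 26.6% and 27.2% in Acot12-/- kidneys. Zfp36l1, an mRNA-destabilizing protein, rose by 1.61 (adjusted p = 7.75e-05) in WT and by 1.21 (adjusted p = 0.000345) in Acot12-/- kidneys, and Spry1, an inhibitor of receptor tyrosine kinase signalling, by 1.22 (adjusted p = 0.00099) and 1.715 (adjusted p = 6.49e-05). Nab1, a corepressor of Egr proteins, fell by 0.60 (adjusted p = 0.0426) in WT kidneys and differed by -0.28 (adjusted p = 0.302) in Acot12-/- kidneys. Dusp1, itself an immediate early gene and named after its values were seen, differed by -0.12 (adjusted p = 0.721) in WT and 0.13 (adjusted p = 0.697) in Acot12-/- kidneys. It measured 17.8, 29.8 and 21.2 FPKM in WT CL and 21.1, 23.6 and 17.4 in WT UUO kidneys, so the groups overlapped.

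Of 22 textbook targets of AP-1, 19 were tested, of which 14 rose and 2 fell in WT and 15 rose and 2 fell in Acot12-/- UUO kidneys, with a median of 1.66 and 2.01. Beside them, 23.6% of all tested genes were called higher and 23.9% lower in WT, and 26.6% and 27.2% in Acot12-/- kidneys. The largest rises in WT kidneys were those of Cd44, the hyaluronan receptor (4.19, adjusted p = 6.13e-07), and of Timp1, the metalloproteinase inhibitor (3.90, adjusted p = 4.88e-05). Ccnd1, which encodes cyclin D1, fell by 1.25 (adjusted p = 5.56e-05), and Vegfa, the vascular growth factor, fell by 0.60 (adjusted p = 0.00444). In Acot12-/- kidneys the differences were 4.545, 5.09, -1.28 and -0.58 in the same order, and all 4 were called. Hbegf (0.30), Hmox1 (0.74) and Mmp13 (-0.56), named after their values were seen, were not called in WT kidneys. Several of these genes also mark infiltrating or scar-forming cells.

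**Figure D5:**
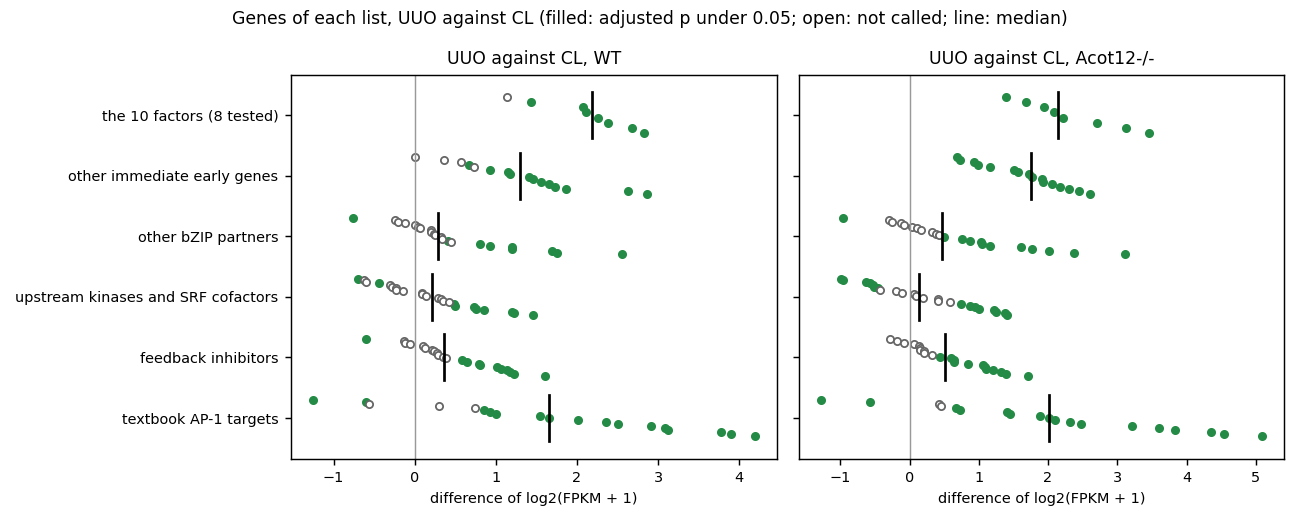
Difference of log2(FPKM + 1) between UUO and CL kidneys for each tested gene of the 6 lists in WT (left) and Acot12-/- mice (right); filled points have an adjusted p under 0.05 in limma, open points do not, and the black line is the median of a list. The medians of the 8 tested factors (2.18 and 2.15) and of the AP-1 targets (1.66 and 2.01) lie right of those of the kinases (0.21 and 0.14).

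Cell type markers moved with obstruction in the same libraries. For comparison, 23.6% of all tested genes were called higher and 23.9% lower in WT, and 26.6% and 27.2% in Acot12-/- kidneys. All 6 injured tubule markers were called higher in both genotypes (median difference 4.81 in WT and 5.26 in Acot12-/- kidneys), and 7 of 8 proximal tubule markers were called lower in WT and 8 of 8 in Acot12-/- kidneys. Of the macrophage and of the fibroblast markers, 7 of 8 were called higher in WT and 8 of 8 in Acot12-/- kidneys, and of 6 T cell markers 5 in each. The macrophage markers summed to 47.5 to 155 FPKM in CL and to 449 to 762 in UUO libraries. Of 6 endothelial markers, 1 was called higher and 3 lower in WT and 4 higher and 0 lower in Acot12-/- kidneys, and of 5 podocyte markers 1 was called higher and 1 lower in each. Of the neutrophil markers Elane was at 0 in all 12 libraries and Mpo in all 6 CL libraries, and of the 2 that could be tested (S100a8 and S100a9) 0 were called in WT and 2, both higher, in Acot12-/- kidneys. The part of these cells in the levels of the 10 factors was not tested.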

How the data were processed

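Total RNA of 12 kidney cortex samples (4 groups of 3) was made into directional libraries and sequenced on a NovaSeq instrument, and a contractor of the authors processed the reads. The labels name the build mm10; the aligner, the counter and its use of strand are not given in the sources used here. The deposited values are FPKM per gene symbol. The unit was derived from the values, whose low steps are inversely proportional to transcript length; these steps are worth 0.0436 to 0.0810 FPKM on a transcript of 1 effective kilobase and correspond to 12300000 to 22900000 fragments. Since the values were also scaled between libraries, this is a normalized depth, which need not equal the sequenced one.

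Genes with at least 1 FPKM in at least 3 libraries were tested, without 28 genes listed at 0 beside at least 10 FPKM in the same group. R 4.3.3 with limma 3.58.1 fitted log2(FPKM + 1) of all 12 libraries with 1 mean per group and eBayes with a variance trend. p-values were adjusted over 13243 genes by Benjamini-Hochberg, and genes under 0.05 were called. The fit was also run on simulated data with independent errors between libraries. The simulated data held no pairs of kidneys and no library that stood apart, and the outcome is not reported here. The labels do not say whether replicates are separate mice, so p-values measure the spread between these samples. Replicate numbers were taken to pair CL and UUO kidneys within a genotype: deviations of CL and UUO libraries with the same number correlated at 0.134 to 0.364 across genes. Those with different numbers correlated at -0.363 to 0.139, so the ranges overlapped. WT UUO replicate 1 correlated at 0.134 with WT CL replicate 1 and at 0.139 with WT CL replicate 2. The labels give no batch. Alternatives were another pseudocount, no filter, 2 other scalings, no variance trend, the 28 genes kept, the replicate number as a block, a fold change of at least 2, fits of only 2 groups, and each library left out; leaving Acot12-/- CL replicate 2 out of every fit was added after seeing the data. The 10 factors, the gene lists, and the markers were chosen with earlier results of these data known. Named list genes are up to 2 with the largest rise and 2 with the largest fall among those called in WT kidneys, of which 1 gene is not reported here; genes like Fos are the 5 with the highest correlation outside the 10 factors. Gene positions are from GENCODE vM21 and promoters from RefSeq, both GRCm38.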

Additional observations from a re-analysis of the deposited data

How the results depend on the processing

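In WT kidneys 7 to 9 of the factors were called higher in UUO under every alternative, and in Acot12-/- kidneys 7 to 9, where 9 is the count without a filter, which adds Fosb and Fosl1. The number of all genes called higher moved as well. In WT it was 3129 of 13243 in the main fit and 7424 with equal totals. It was 4235 with only the 2 groups, 4081 without Acot12-/- CL replicate 2 and 3473 with the block. The Acot12-/- numbers were 3518, 6077, 2743, 3906 and 3805 in the same order. Without a filter, 3702 of 19125 genes were called higher in WT and 4421 in Acot12-/- kidneys. Jund in WT kidneys became called with equal totals (1.87, adjusted p = 0.00274), with only the 2 groups in the fit and without Acot12-/- CL replicate 2. Its Acot12-/- call was lost without a filter (adjusted p = 0.0580), with only 2 groups, and without Acot12-/- UUO replicate 2 or replicate 3. With the replicate number as a block (replicate block, consensus correlation 0.208) 7 factors were called in WT and 8 in Acot12-/- kidneys, none of the 8 changed its call in any comparison, and Jund in WT had an adjusted p of 0.0562. Between genotypes 0 factors were called under every alternative, with 1 exception: leaving out single libraries gave 0 to 1 in CL kidneys, the 1 being Atf3 without Acot12-/- CL replicate 3.

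Signs changed only for differences that were not called. With equal totals the difference between genotypes in UUO kidneys was -0.13 for Fosl2 and -0.092 for Junb, and the interaction of Fosl2 was -0.17; with a pseudocount of 0.1 the latter was -0.0056. Leaving out 1 library at a time, the genotype difference in UUO kidneys ran from -0.34 to 0.17 for Fos, -0.20 to 0.16 for Fosl2, -0.16 to 0.25 for Junb, -0.13 to 0.12 for Jund and -0.43 to 0.0025 for Egr1. In CL kidneys it ran from -0.58 to 0.12 for Fos, -0.12 to 0.25 for Fosl2, -0.51 to 0.15 for Jun, -0.83 to 0.54 for Jund and -0.38 to 0.12 for Klf6. The interaction ran from -0.14 to 0.56 for Fos, -0.23 to 0.15 for Fosl2, -0.48 to 0.19 for Jun, -0.56 to 0.82 for Jund, -0.051 to 0.61 for Egr1 and -0.34 to 0.16 for Klf6. Over all genes, calls between genotypes in CL kidneys went from 593 to 333 with equal totals and to 1 with only the 2 groups in the fit, and those in UUO kidneys from 2 to 0 in that fit. The interaction calls went from 14 to 0 with equal totals or without a filter, to 8 without the variance trend and to 203 with the block. The low fragment numbers of Fosb and Fosl1 limit how closely their changes can be measured.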
